A study of Mus musculus with 18 samples.

Results

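Nxnl1, Nxnl2, Bsg, Slc2a1, Slc2a3, Slc2a4, Slc2a8 and Slc2a13 were followed in RNA-seq libraries of mouse cone photoreceptors. These 8 genes, of 54532 in the deposited tables, were taken by symbol: the genes of rod-derived cone viability factor (RdCVF), its receptor basigin, and 5 members of the Slc2a family of glucose transporters. Each library came from the sorted cones of 1 retina of a wild-type mouse injected as a newborn with adeno-associated virus (AAV). BALB/c, an albino strain taken at postnatal day 21, gave 6 libraries with the control vector and 6 with Txnip. C57BL/6J, a pigmented strain taken at postnatal day 35, gave 3 of each. Both arms carried a vector for nuclear H2BGFP, which marked the cones for sorting. The Txnip arm also received a vector that expressed Txnip from a cone opsin promoter. Strain and age changed together, and the file headers placed the tables of the strains in 2 different project folders, so that strain, age and anything tied to the folder cannot be told apart. The sources do not say which retinas came from the same mouse, so p-values measure the spread between these libraries.

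RdCVF is a truncated thioredoxin-like protein that rods secrete and that keeps cones alive in culture and in degenerating retina. It is made from Nxnl1, and its close relative RdCVF2 from Nxnl2. Alternative splicing of either gene also gives a longer protein with a thioredoxin fold. RdCVF binds basigin-1, the retina-specific splice form of basigin, which associates with the glucose transporter Glut1 (Slc2a1) and is described as raising glucose entry into cones. Basigin-2, the common splice form, instead escorts monocarboxylate transporters to the membrane. Txnip is an alpha-arrestin that binds thioredoxin and promotes the removal of Slc2a1 from the cell surface. The counts are per gene, so RdCVF and its long form, and both forms of basigin, were each counted together.

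The upstream sequence of the 2 RdCVF genes is shown because these genes differed between the strains in opposite directions (below). RefSeq promoter entries on GRCm38.p6 were matched for 5 of the 8 genes, and the first 240 bases of each entry, all upstream of the start that RefSeq gives, were read on the strand of the gene. Capitals mark the motif TAATC or its reverse complement, the core of the sites bound by the photoreceptor factor Crx. It was found 1 time in each sequence, and 19.4% of the 32851 promoter entries held it in the same window on either strand. The first base of the motif lay 35 bases before the RefSeq start of Nxnl1 and 151 bases before that of Nxnl2. The RefSeq start of Nxnl1 lies 48 bases upstream of the gene start in the counted Ensembl annotation, and that of Nxnl2 lies 3 bases inside it, so from the Ensembl starts the distances are 83 and 148 bases.
Nxnl1, chr8:71566660-71566899, minus strand: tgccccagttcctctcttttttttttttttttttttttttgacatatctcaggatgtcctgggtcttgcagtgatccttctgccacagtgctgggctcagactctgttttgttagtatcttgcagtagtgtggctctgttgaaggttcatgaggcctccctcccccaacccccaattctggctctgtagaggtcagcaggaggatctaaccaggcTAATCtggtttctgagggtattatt
Nxnl2, chr13:51170775-51171014, plus strand: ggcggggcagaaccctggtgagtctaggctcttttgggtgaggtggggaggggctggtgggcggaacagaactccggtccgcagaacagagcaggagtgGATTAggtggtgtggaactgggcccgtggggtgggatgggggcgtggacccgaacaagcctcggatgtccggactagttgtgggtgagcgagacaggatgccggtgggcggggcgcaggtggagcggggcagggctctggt
The Nxnl1 window held 46.2% G or C and the Nxnl2 window 66.7%. The motif GGGCGG, the GC box, was found in neither orientation in the Nxnl1 window and 2 times in that of Nxnl2, and 31.3% of all entries held it. Of the other genes with an entry, Slc2a8 also held TAATC 1 time, and Slc2a1 and Slc2a13 each held GGGCGG 2 times. All windows come from 1 reference genome, so they show no difference in sequence between the strains. These are matches of letters only, and no binding or chromatin was measured.

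The libraries held 647712 to 5172156 counted read pairs. Txnip itself was at most 1.48 CPM (counts scaled to a library of 1000000) in the 9 control libraries and at least 821 CPM in the 9 Txnip libraries. Markers of cones took 3.71% to 9.76% of the counts, and all 12 were detected in each group. Rod markers, 9 genes, took 0.806% to 2.21%, with the highest share in C57BL/6J control replicate 1 (95% Wilson interval 2.20% to 2.23%) and the next in C57BL/6J Txnip replicate 2 (1.53%, interval 1.52% to 1.54%). These 2 libraries also had the highest shares of Müller glia markers, at 0.0953% and 0.0685% against at most 0.0256% elsewhere, and of bipolar cell markers, at 0.0390% and 0.0452% against at most 0.0159%. Endothelial markers reached at most 0.00434%, retinal pigment epithelium markers 0.00540%, microglia markers 0.00275% and blood markers 0.00318%. BALB/c control replicates 2, 4 and 5 stood apart by the share of the ribosomal RNA locus, at 6.00% to 8.70% against 15.0% to 15.7% in the other BALB/c controls and 11.99% to 16.3% in BALB/c Txnip. In C57BL/6J this share ran from 3.27% to 27.5%. Where the call of a followed gene changed without those 3 libraries, the result is given with and without them. Intervals and floors cover counting error only.

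Bsg was the most abundant of the 8 genes per length, followed by Nxnl1. Levels between genes are compared here as CPM per kilobase of exon. In BALB/c control cones, Bsg (basigin, chromosome 10, 79704491 to 79711969, plus strand) stood at 467 ± 39.5 CPM per kilobase (SD, n = 6). Nxnl1 (chromosome 8, 71560555 to 71566601, minus strand) stood at 147 ± 22.6. Nxnl2 (chromosome 13, 51171022 to 51175188, plus strand) stood at 15.5 ± 3.23, close to Slc2a1 at 19.1 ± 3.09. Among the 14751 genes tested in all libraries, Bsg ranked 52 in BALB/c controls and 50 in C57BL/6J controls by level per length, and Nxnl1 ranked 231 and 413. Nxnl2 ranked 3266 in BALB/c controls and 1094 in C57BL/6J controls.

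**Figure D1:**
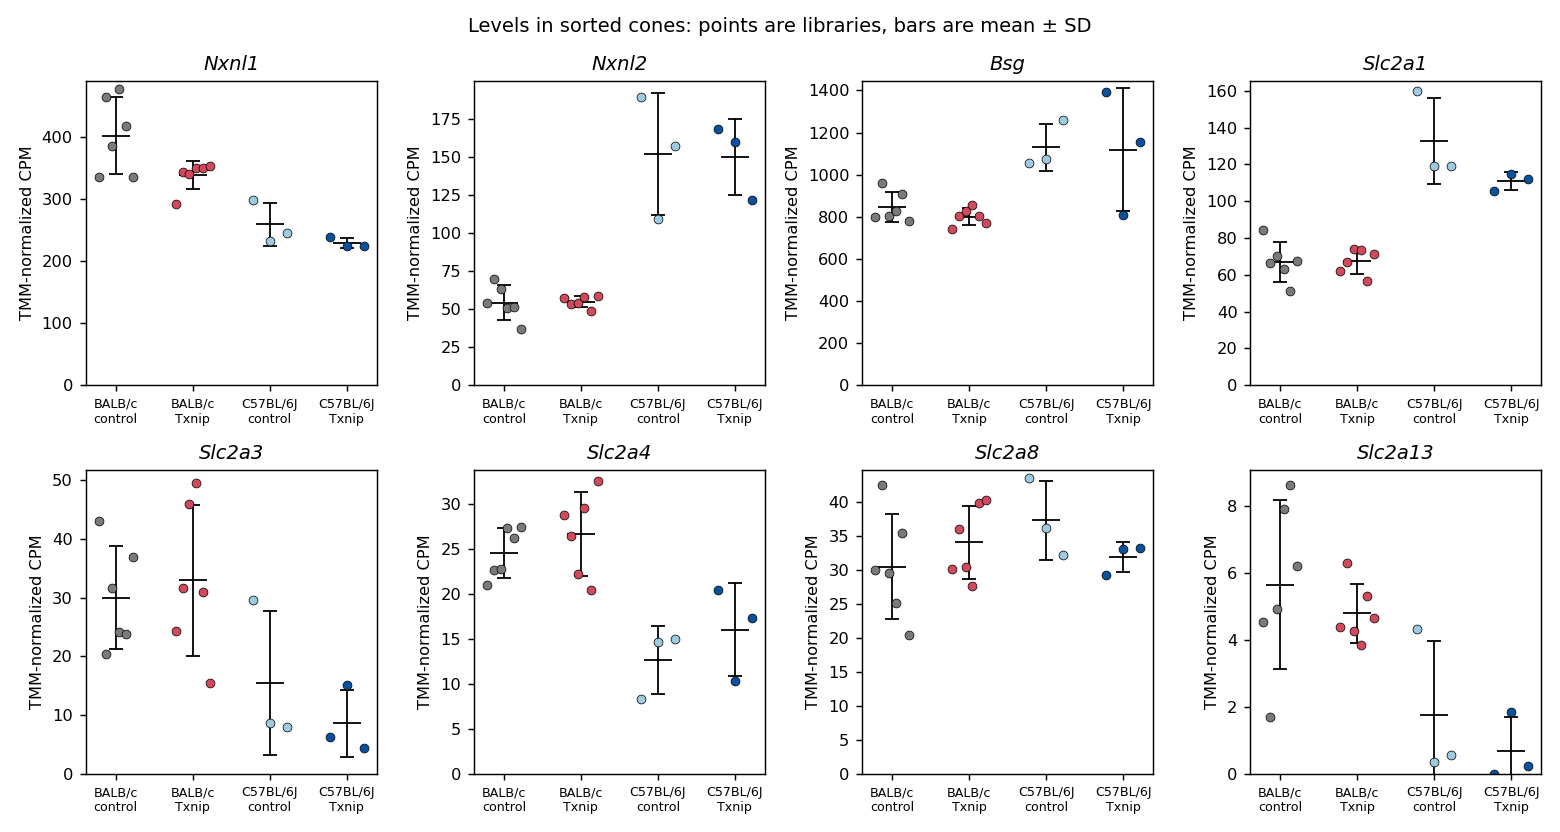
CPM after TMM normalization (y axes, linear from 0) of each of the 8 genes in 18 libraries of sorted cones, by strain and vector. Points are libraries and bars are mean ± SD. Nxnl2, Bsg and Slc2a1 are higher and Nxnl1 and Slc2a4 lower in all 3 C57BL/6J control libraries than in any of the 6 BALB/c control libraries.

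The strains were compared first between their control cones, which asks how the level of each gene differed before any Txnip was added. Nxnl2 and Slc2a1 were higher in C57BL/6J at day 35 than in BALB/c at day 21, Bsg was moderately higher, and Nxnl1 and Slc2a4 were lower. All 5 passed the edgeR quasi-likelihood test, against a background of 17.5% of the 14751 genes tested. By direction, 3 of the 8 genes were called higher, against 8.03% of all genes, and 2 were called lower, against 9.52%. The same 5 genes were those whose control libraries did not overlap between the strains, which held for 18.6% of all genes tested. BALB/c control replicates 2, 4 and 5 have the low ribosomal RNA share. Without them 3 of the 8 passed (Nxnl2, Slc2a1 and Slc2a4), and Nxnl1 and Bsg did not. Over all genes, that fit called 1512 of the 14559 tested, and the main fit called 2588 of 14751.

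The RdCVF genes differed in opposite directions. In BALB/c controls, Nxnl1 ranged from 335 to 477 CPM with a median of 401. In C57BL/6J controls it was 299, 232 and 246 CPM, so every C57BL/6J library lay below every BALB/c library. This was a log2 fold change of -0.63 (SE 0.14, adjusted p = 0.0023, edgeR), 0.644 times the BALB/c level. Without the 3 BALB/c controls of low ribosomal RNA share it was -0.44 (SE 0.14, adjusted p = 0.0504, edgeR) and did not pass. Nxnl2 ranged from 36.9 to 69.6 CPM in BALB/c controls, with a median of 52.5. It was 189, 109 and 157 CPM in C57BL/6J controls, all above the BALB/c range. Its log2 fold change was 1.50 (SE 0.17, adjusted p = 1.8e-06, edgeR), which is 2.83-fold. Rod markers moved with it: 5 of the 9 were called higher in C57BL/6J controls in edgeR, against 8.03% of all genes, and 2 of the 9 were called by DESeq2. A total of 7 of the 9 had a positive log2 fold change, although their summed shares of 0.806% to 2.21% and, in BALB/c controls, 0.958% to 1.19% overlapped. The highest Nxnl2 level, 189 CPM, was in the library with the highest rod share. Deviations of Nxnl2 from the group means correlated at 0.65 with those of the rod share, 0.60 with the bipolar cell share and 0.56 with the Müller glia share over the 18 libraries. Without the 2 libraries of highest rod share the log2 fold change was 1.30 (SE 0.19, adjusted p = 2.2e-05, edgeR), and with the log2 rod share as a covariate it was 1.32 (SE 0.15, adjusted p = 1.7e-06, edgeR).

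The balance of these 2 genes inside a library does not depend on normalization between libraries. Per length, Nxnl1 exceeded Nxnl2 by 7.81 to 12.1 times in the BALB/c controls and by 2.00 to 2.73 times in the C57BL/6J controls. In the Txnip libraries the same ratio was 6.58 to 9.17 in BALB/c and 1.80 to 2.36 in C57BL/6J. The ranges of the strains stayed apart in both arms, and these ratios are given as a description.

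Bsg ranged from 780 to 961 CPM in BALB/c controls, with a median of 817. It was 1057, 1074 and 1259 CPM in C57BL/6J controls, which lay just above the BALB/c range. This gave a log2 fold change of 0.42 (SE 0.14, adjusted p = 0.038, edgeR), which is 1.34-fold. This call was the least stable of the 5, since it was lost in 12 of 18 fits that left out 1 library (adjusted p of those fits 0.053 to 0.19), although the log2 fold change stayed between 0.33 and 0.45. The call was kept when BALB/c control replicate 2 or 5, BALB/c Txnip replicate 5 or any C57BL/6J Txnip library was left out, and lost without any other library. It was also lost with no filter beyond a single count (adjusted p = 0.082, edgeR) and without the 3 BALB/c controls of low ribosomal RNA share (log2 fold change 0.51, adjusted p = 0.059, edgeR). The level of Bsg moved with the share of cone markers: across the 18 libraries, the Pearson correlation of the deviations from the group means was 0.88. Of the 12 cone markers, 10 were positive between the strains and 4 (Opn1mw, Arr3, Gngt2 and Pde6c) were called higher in C57BL/6J controls, against 8.03% of all genes, while DESeq2 called 5. Their summed share was 5.04% to 9.76% in C57BL/6J controls and 5.11% to 6.67% in BALB/c controls. The lowest cone share of all, 3.71%, was in C57BL/6J Txnip replicate 2, whose Bsg level of 810 CPM was the lowest of the C57BL/6J libraries. The part of cone purity in the Bsg difference was not tested.

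The partners of basigin were read from a list. Of the 7 genes listed for basigin and its partners, 6 were tested between the strains, and 2 passed, Bsg higher and Emb lower, against 17.5% of all genes called. The median log2 fold change of the 6 was -0.04, against 0.00 over all genes tested. Emb (embigin), a relative of basigin that also escorts monocarboxylate transporters, had a log2 fold change of -2.46 (SE 0.53, adjusted p = 0.0021, edgeR). Slc16a1 (Mct1), a lactate and pyruvate carrier, stood at 40.5 CPM per kilobase in BALB/c controls and 51.2 in C57BL/6J controls and did not pass (adjusted p = 0.38, edgeR).

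The glucose transporters were ordered by level per length within each strain, over control and Txnip libraries together. Slc2a1 (Glut1), the main glucose transporter of the blood-retina barrier and of photoreceptors, came first in both. In BALB/c, Slc2a1 at 19.2 ± 2.47 CPM per kilobase (SD, n = 12) was followed by Slc2a8 at 10.1 ± 2.07, Slc2a4 at 7.35 ± 1.09, Slc2a3 at 4.34 ± 1.46, Slc2a6 at 3.59 ± 1.31, Slc2a12 at 1.43 ± 0.612 and Slc2a13 at 0.624 ± 0.222. In C57BL/6J, Slc2a1 at 34.8 ± 5.52 (SD, n = 6) was followed by Slc2a8 at 10.8 ± 1.54 and Slc2a4 at 4.11 ± 1.28. Behind these came Slc2a12 at 1.56 ± 0.485, Slc2a3 at 1.65 ± 1.29 and Slc2a6 at 1.25 ± 1.23, with Slc2a13 last at 0.145 ± 0.197. The order itself is by mean log2 level, which places Slc2a12 ahead of Slc2a3 although its linear mean is lower.

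Neighbours in this order are described by their ratio within libraries and by the number of libraries that shared its direction, with no p, since the same libraries set the order. In BALB/c, Slc2a1 exceeded Slc2a8 1.92-fold in 12 of 12 libraries. Slc2a8 exceeded Slc2a4 1.35-fold in 10 of 12, and Slc2a4 exceeded Slc2a3 1.77-fold in 12 of 12. Without the correction for length, the order of this last pair turned, with Slc2a3 above Slc2a4 1.18-fold in 7 of 12 libraries. Slc2a3 exceeded Slc2a6 by a mean log2 ratio of only 0.26 (SD 0.37), and the pair of Slc2a5 and Slc2a2 had at most 9 counts in any library. In C57BL/6J, Slc2a1 exceeded Slc2a8 3.21-fold in 6 of 6 libraries, and Slc2a8 over Slc2a4 and Slc2a4 over Slc2a12 also held in 6 of 6. Slc2a12 stood above Slc2a3 in 4 of 6 libraries, at a mean log2 ratio of 0.16 (SD 1.22) that lay within its spread. Slc2a7, Slc2a9 and Slc2a10 had at most 4 counts in any library and did not enter the order.

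**Figure D2:**
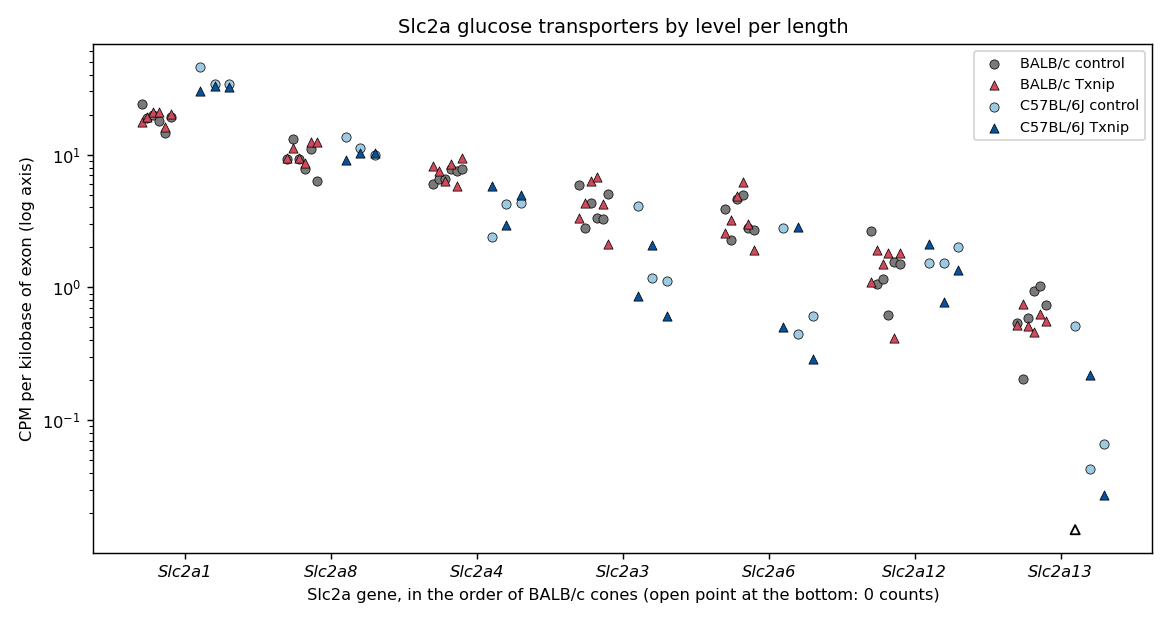
Level of 7 Slc2a genes in CPM per kilobase of exon (log y axis) in every library, with BALB/c to the left and C57BL/6J to the right of each tick, circles for control and triangles for Txnip. Slc2a1 is highest in every library, and Slc2a3, Slc2a6 and Slc2a13 spread most in C57BL/6J; the open triangle is a library with 0 counts of Slc2a13.

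Slc2a1 also differed between the strains. Slc2a1 (chromosome 4, 119108711 to 119137983, plus strand) ranged from 50.9 to 84.4 CPM in BALB/c controls, with a median of 67.0. It was 160, 119 and 119 CPM in C57BL/6J controls, all above the BALB/c range. This gave a log2 fold change of 0.99 (SE 0.14, adjusted p = 3.4e-05, edgeR), which is 1.99-fold. An antisense gene, Gm12868, shares 105 exonic bases with Slc2a1, and counting without strand cannot separate reads in that stretch; it had 3 to 62 counts per library against 46 to 487 for Slc2a1. Endothelial cells carry much Slc2a1, and the 7 endothelial markers together took 0.000116% to 0.00394% of the counts in C57BL/6J controls and 0.000342% to 0.00136% in BALB/c controls. The 2 that could be tested, Kdr and Flt1, had log2 fold changes of 1.53 and 1.66 toward C57BL/6J and did not pass (adjusted p = 0.23 and 0.38, edgeR). Cldn5 was at 0 in every BALB/c library and had 2 counts in 1 C57BL/6J control and 18 in 1 C57BL/6J Txnip library. Tie1 was at 0 in every C57BL/6J control. Across the 18 libraries, deviations of Slc2a1 from the group means correlated at 0.70 with those of the amacrine cell share, 0.40 with the Müller glia share and 0.17 with the endothelial share. Of the Müller glia markers, 6 of 6 tested had positive log2 fold changes toward C57BL/6J (median 1.32), and Glul and Rlbp1 were called higher, against 8.03% of all genes. Amacrine markers ran the other way between the strains (values given with Slc2a3). The part of these cells in the Slc2a1 difference was not tested.

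Slc2a4 (Glut4), the insulin-responsive transporter of muscle and fat, lies on chromosome 11 at 69942539 to 69948188 on the minus strand. It ranged from 20.9 to 27.4 CPM in BALB/c controls, with a median of 24.4. In C57BL/6J controls it was 8.29, 14.7 and 15.0 CPM, all below the BALB/c range. Its log2 fold change was -0.95 (SE 0.24, adjusted p = 0.0073, edgeR), 0.516 times the BALB/c level. The lowest level, 8.29 CPM, was in C57BL/6J control replicate 1, the library with the highest rod and Müller glia shares. Deviations of Slc2a4 from the group means correlated over the 18 libraries at -0.69 with those of the Müller glia share, -0.67 with the bipolar, -0.63 with the amacrine, -0.63 with the endothelial, -0.55 with the rod and 0.49 with the cone share. Without that library the log2 fold change was -0.75 (SE 0.25, adjusted p = 0.0496, edgeR), and with the log2 rod share as a covariate it was -0.85 (SE 0.23, adjusted p = 0.012, edgeR). The part of the other cell types was not tested.

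Slc2a3 (Glut3), the high-affinity transporter of neurons, lies on chromosome 6 at 122727809 to 122801640 on the minus strand. It ranged from 20.4 to 43.0 CPM in BALB/c controls, with a median of 27.9. In C57BL/6J controls it was 29.5, 8.59 and 8.04 CPM, so replicate 1 fell inside the BALB/c range and the other two below it. The log2 fold change was -0.98 (SE 0.41, adjusted p = 0.11, edgeR) and did not pass. Without C57BL/6J control replicate 1, the library with the highest rod share, the log2 fold change was -1.86 (SE 0.43, adjusted p = 0.0044, edgeR). With the log2 rod share as a covariate it was -1.60 (SE 0.38, adjusted p = 0.0041, edgeR), and with no filter beyond a single count it also passed (adjusted p = 0.0070, edgeR).

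The Slc2a3 level also moved with the amacrine cell markers, 7 genes of inhibitory interneurons. Their summed share was 0.0363% in C57BL/6J control replicate 1 against 0.0123% and 0.0112% in replicates 2 and 3, and 0.0279% to 0.0362% in the BALB/c controls. None of the 7 markers was at 0 throughout any group, and 4 of the 6 that were tested (Gad1, Gad2, Pax6 and Tfap2b) were lower in C57BL/6J controls in edgeR, against 9.52% of all genes, and DESeq2 called 3. Across the 18 libraries, deviations of Slc2a3 from the group means correlated with those of the amacrine share at 0.75 and with those of the rod share at 0.61. The part of other cell types in the Slc2a3 difference was not tested. In bulk libraries, fewer cells of a type and less RNA per cell cannot be told apart.

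**Figure D3:**
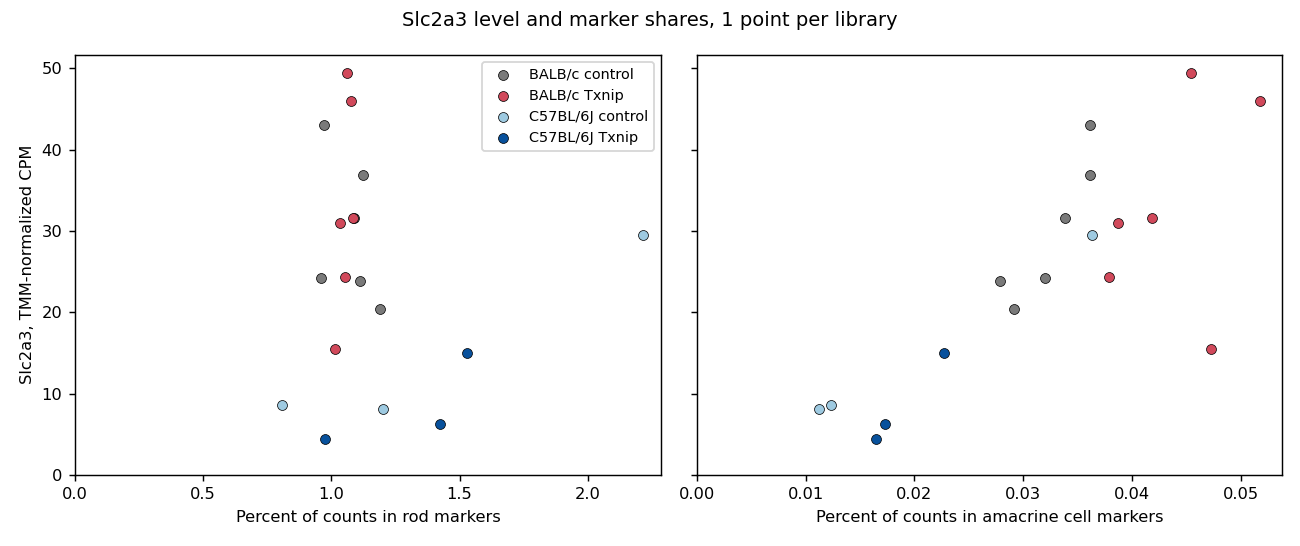
Slc2a3 level in CPM (y axis) against the percent of counts in rod markers (left) and amacrine cell markers (right), 1 point per library, coloured by group. C57BL/6J control replicate 1 stands at the highest rod share, 2.21%, with Slc2a3 at 29.5 CPM, while the other C57BL/6J libraries lie at 15.0 CPM or lower.

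Slc2a13 (Hmit), a proton-coupled myo-inositol transporter, was the least abundant of the 8 genes and lies on chromosome 15 at 91267696 to 91573261 on the minus strand. It had 3 to 32 counts in BALB/c controls and 12, 1 and 2 counts in C57BL/6J controls. In CPM this was 1.70 to 8.63 against 4.32, 0.358 and 0.555, so the groups overlapped through C57BL/6J replicate 1. The log2 fold change was -1.74 (SE 0.71, adjusted p = 0.093, edgeR) and did not pass. Without that library it was -3.53 (SE 0.87, adjusted p = 0.0069, edgeR), and with the log2 rod share as a covariate -3.08 (SE 0.78, adjusted p = 0.0071, edgeR). Deviations of Slc2a13 from the group means correlated at 0.70 with those of the Müller glia share and 0.66 with the bipolar share. The values were 0.65 for the amacrine, 0.62 for the endothelial, 0.55 for the rod and -0.31 for the cone share. The part of these cell types in the Slc2a13 difference was not tested. Replicate 1 of the C57BL/6J Txnip group had 0 counts, which allows a level of up to 0.814 CPM.

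Slc2a8 (Glut8), an intracellular glucose and trehalose transporter, lies on chromosome 2 at 32972990 to 32982083 on the minus strand. It ranged from 20.4 to 42.5 CPM in BALB/c controls, with a median of 29.8, and was 43.6, 36.2 and 32.2 CPM in C57BL/6J controls. The groups overlapped, and the log2 fold change of 0.30 did not pass (95% interval -0.11 to 0.71, adjusted p = 0.32, edgeR). The interval leaves room for a rise of up to 1.64-fold.

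The Txnip libraries of the strains were compared as a second set of retinas. There 7 of the 8 genes passed, against 17.6% of all genes tested, and the exception was Slc2a8 (log2 fold change -0.07). Nxnl2 was 2.73-fold higher in C57BL/6J (adjusted p = 3.2e-06, edgeR) and Slc2a1 was 1.65-fold higher (adjusted p = 0.0012, edgeR). Nxnl1 was 0.678 times the BALB/c level (adjusted p = 0.0061, edgeR). Slc2a3 had a log2 fold change of -2.03 (adjusted p = 0.0025, edgeR), and its C57BL/6J libraries at 6.24, 15.0 and 4.38 CPM lay below the BALB/c range of 15.5 to 49.5 CPM. Bsg and Slc2a4 passed here although their libraries overlapped between the strains. Slc2a13 passed on few counts, with a log2 fold change of -2.91 (adjusted p = 0.016, edgeR). It had 0, 5 and 1 counts in the C57BL/6J Txnip libraries and 3 to 20 in those of BALB/c. The strains again differed in age and project folder. The amacrine marker share also stood apart in these libraries, at 0.0165% to 0.0227% in C57BL/6J and 0.0379% to 0.0518% in BALB/c, and its part in the Slc2a3 difference was not tested.

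The make-up of the Slc2a family differed accordingly. Slc2a1 took 34.0% to 45.9% of the summed Slc2a level per kilobase in BALB/c controls and 64.5% to 65.2% in C57BL/6J controls. Slc2a4 took 11.5% to 17.9% and 3.37% to 8.26%, and Slc2a3 took 6.18% to 11.5% and 2.13% to 5.78%. Slc2a8 took 14.4% to 29.1% in BALB/c controls and 19.2% to 21.4% in C57BL/6J controls. The ranges of Slc2a1, Slc2a4 and Slc2a3 did not overlap between the strains, and those of Slc2a8 did. These shares are a description of the same counts.

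**Figure D4:**
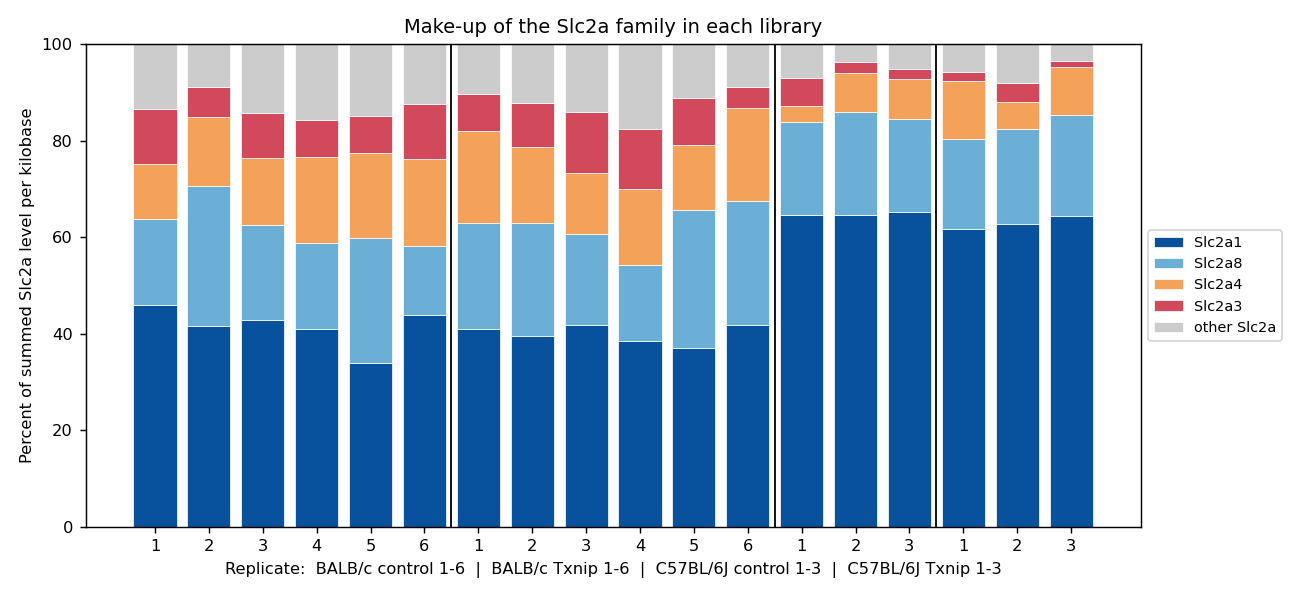
Percent of the summed Slc2a level per kilobase of exon (y axis) taken by Slc2a1, Slc2a8, Slc2a4, Slc2a3 and the other Slc2a genes in each of 18 libraries (x axis, by group and replicate). Slc2a1 takes 34.0% to 45.9% in the BALB/c libraries and 61.7% to 65.2% in the C57BL/6J libraries.

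Other genes of glucose uptake were read from lists of the same kind. Of 12 Slc2a genes, 7 were tested between the strains, with Slc2a1 higher and Slc2a4 lower and a median log2 fold change of -0.95. These 2 of 7 calls, and those of the small lists that follow, stand against 17.5% of all genes called. Of 6 sodium-coupled Slc5a sugar transporters, 2 were tested and Slc5a1 (Sglt1) passed, with 0 to 13 counts in BALB/c controls and 0 counts in each C57BL/6J control. Of 5 hexokinase genes, which trap glucose by phosphorylation, 3 were tested. Hk2 had a log2 fold change of 1.19 (adjusted p = 0.00016, edgeR) and Hkdc1 one of -2.24 (adjusted p = 0.00014, edgeR), while Hk1 did not pass at -0.38 (adjusted p = 0.054, edgeR). DESeq2 called 3 of these 3, Hk1 included. Per length, Hk2 stood at 50.6 CPM per kilobase and Hk1 at 52.3 in BALB/c controls, and at 115 and 40.2 in C57BL/6J controls.

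Genes that move Slc2a proteins between endosomes and the surface were also tested. Of 18, Sort1 (sortilin) was higher in C57BL/6J controls at a log2 fold change of 0.64, while Vps35, the retromer core subunit that returns Slc2a1 to the membrane, was lower at -0.66. Vamp2, a vesicle fusion protein, was lower at -0.46. The other 15 did not pass. The 3 of 18 called is 16.7%, near the 17.5% of all genes, and DESeq2 called 4. The median log2 fold change over the 18 was -0.20, against 0.00 over all genes tested. Of the 7 thioredoxin-related genes tested, 0 passed in edgeR and 0 in DESeq2, and 1 had an unadjusted p under 0.05, which 31.1% of all genes reached.

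Txnip against control was compared within each strain, which asks whether the added Txnip changed these genes. In BALB/c, 0 of the 8 genes passed edgeR (adjusted p 0.30 to 0.98), against 0.0166% of the 12017 genes tested. DESeq2 also called 0 of them, and 1 had an unadjusted p under 0.05. In C57BL/6J, 0 of the 7 that could be tested passed in edgeR or DESeq2, 0 had an unadjusted p under 0.05, and 0.0154% of the 12974 genes tested were called. Slc2a13 was below the filter on counts in C57BL/6J. Of the other listed genes of basigin partners, sugar transport, hexokinases and thioredoxins, 0 passed in edgeR or DESeq2 in either strain. An unadjusted p under 0.05 was reached by 8 of the 31 tested in BALB/c cones, against 11.4% of all genes tested. In C57BL/6J cones it was reached by 0 of the 29 tested, against 0.748%. Without the 3 BALB/c controls of low ribosomal RNA share, 615 of all 12544 genes tested in BALB/c reached it. The count of listed genes in that fit is not given here.

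**Figure D5:**
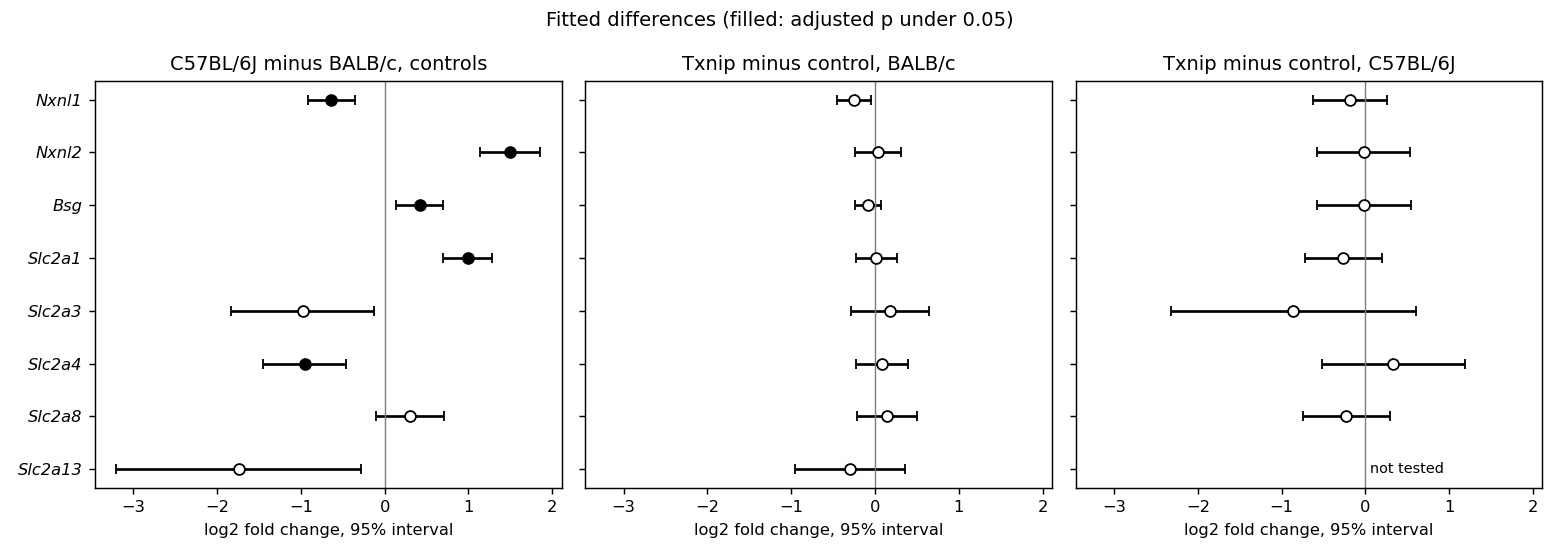
Fitted log2 fold changes (x axes) with 95% intervals of the 8 genes (rows) between the strains' control cones and for Txnip against control in each strain. Filled points have an adjusted p under 0.05, which 5 genes reach between the strains and 0 reach with Txnip.

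The gene with the smallest p under Txnip was Nxnl1 in BALB/c. It ranged from 293 to 353 CPM in the Txnip libraries, with a median of 347, against 335 to 477 and a median of 401 in the controls. The log2 fold change was -0.25 (95% interval -0.45 to -0.05, unadjusted p = 0.016, adjusted p = 0.30, edgeR). The 3 highest controls, at 464, 477 and 417 CPM, were replicates 2, 4 and 5, the libraries of low ribosomal RNA share, and the others stood at 335, 385 and 335 CPM. Without those 3 libraries the log2 fold change was -0.06 (95% interval -0.24 to 0.12, adjusted p = 0.99, edgeR). The two-sided exact permutation test of its mean CPM gave p = 0.045, and 0.36 after adjustment over the 8 genes tested in that strain. In C57BL/6J it was 238, 224 and 224 CPM with Txnip against 299, 232 and 246 in the controls. The log2 fold change there was -0.18 (95% interval -0.62 to 0.26, adjusted p = 1, edgeR). The groups overlapped in both strains.

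Slc2a1 in BALB/c ranged from 56.6 to 74.1 CPM with Txnip, inside the control range. Its log2 fold change was 0.01 (95% interval -0.23 to 0.26, adjusted p = 0.98, edgeR). In C57BL/6J it was 106, 115 and 112 CPM with Txnip against 160, 119 and 119, so the groups did not overlap. This held for 4.42% of the genes tested in C57BL/6J and for 0.699% in BALB/c. The exact permutation p was 0.1, the smallest that 3 against 3 libraries allow, and the log2 fold change of -0.26 did not pass (95% interval -0.72 to 0.20, adjusted p = 1, edgeR). The difference between the strains in the effect of Txnip on Slc2a1 was -0.27 (95% interval -0.70 to 0.16, adjusted p = 1.0, edgeR).

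Bsg and Nxnl2 did not pass in either strain. In BALB/c, Bsg had a log2 fold change of -0.08 (95% interval -0.23 to 0.07) and Nxnl2 one of 0.03 (95% interval -0.24 to 0.31). In C57BL/6J the intervals were wider, at -0.58 to 0.54 for Bsg and -0.58 to 0.53 for Nxnl2, both around -0.02. Bsg with Txnip was 1392, 810 and 1155 CPM in C57BL/6J, a spread wider than that of its controls. Nxnl2 with Txnip was 168, 160 and 122 CPM in C57BL/6J and 48.7 to 58.9 CPM in BALB/c.

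The other Slc2a genes spread more. In BALB/c, the log2 fold changes were 0.18 for Slc2a3, 0.08 for Slc2a4, 0.14 for Slc2a8 and -0.30 for Slc2a13, each with an interval that held 0. The amacrine marker share was higher in every BALB/c Txnip library (0.0379% to 0.0518%) than in any BALB/c control (0.0279% to 0.0362%). Of the 5 amacrine markers tested there, edgeR called 0, with 2 at an unadjusted p under 0.05, DESeq2 called 2, and the Pax6 libraries did not overlap. As given above, Slc2a1 and Slc2a3 moved with this share within groups, and its part in their Txnip values was not tested. In C57BL/6J, Slc2a3 had a log2 fold change of -0.86 (95% interval -2.32 to 0.60), which was 0.03 without control replicate 1. Slc2a4 had one of 0.33 (95% interval -0.52 to 1.18) and Slc2a8 one of -0.23 (95% interval -0.75 to 0.29). Slc2a4 with Txnip was 20.3, 10.3 and 17.3 CPM and Slc2a8 29.3, 33.0 and 33.2 CPM, both overlapping their controls. The difference between the strains in the effect of Txnip passed for 0 of the 8 genes in edgeR and in DESeq2, and 0 had an unadjusted p under 0.05, with 0.0% of all genes called in edgeR. The largest of these differences by p was that of Slc2a3, at -1.06 (95% interval -2.27 to 0.16, unadjusted p = 0.086, edgeR).

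The genes with a pattern most like each member except Slc2a13 were found from log2 CPM deviations from the group means over the 18 libraries. They were sought among 7889 genes with a mean of at least 50 counts. Slc2a13, with a mean of 10.6 counts, was below that limit and was left out. Bsg was followed by Atp6v0e2, a subunit of the proton pump of acidic organelles, at a Pearson correlation of 0.95. Atp5a1, a subunit of the mitochondrial ATP synthase, and Tsnax both followed at 0.95. Slc2a3 was closest to Runx1t1, a transcriptional corepressor, at 0.92, to Syt4, a synaptotagmin, at 0.89 and to Tmem250-ps at 0.89. Slc2a4 was closest to Akr1e1 at 0.89, Gm26718 at 0.87 and Pgam5 at 0.84, and its deviations ran against those of Slc2a3 at -0.73.

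The RdCVF genes and Slc2a1 had looser neighbours. Nxnl1 was closest to Ttc30b (0.82), Brd3 (0.81) and Alpl (0.80), and Nxnl2 to Lmf2 (0.79), Rpl11 (0.78) and Anxa5 (0.77). Slc2a1 was closest to Haghl (0.86), Gabbr1 (0.79) and Srp72 (0.78). Of the members compared, Slc2a8 had the weakest likeness, to Larp4b (0.70), to Prph2 (0.70), the disc rim protein of photoreceptors, and to Ccdc189 (0.69). Its deviations correlated at -0.54 with log2 depth. Nxnl1 and Nxnl2 correlated with each other at 0.52. All points share library depth and cell make-up, so these values are descriptions.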

How the data were processed

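The authors isolated H2BGFP-positive cones by sorting and made libraries with a modified Smart-Seq2 protocol. They deposited raw counts of read pairs per gene, from featureCounts 1.6.2 on exons of the Ensembl 94 annotation of GRCm38, without strand and counting a pair for every gene it overlapped. The submitters' processing notes name STAR, featureCounts and DESeq2; the STAR version is not given in the sources used here. The authors' own comparison tables (fold changes and p-values) were not used. The test was edgeR 4.0.16 (R 4.3.3): filterByExpr, TMM, glmQLFit and glmQLFTest, with Benjamini-Hochberg adjustment over all genes tested and a threshold of 0.05. Txnip was fitted within each strain, and the strain difference and the interaction in 1 fit of 4 groups. Standard errors are from the F statistic. edgeR raised the p of Slc2a4 under Txnip in BALB/c above what its standard error implies. The fits were tested on simulated data. For the order, log2 of (count + 0.5) per kilobase was used, and only genes with a mean of at least 1 count per library entered. Of 36 pairs of libraries within groups, all differed by more than sampling noise (chi-square per degree of freedom 1.91 to 80.4). DESeq2 1.42.0 was an alternative.

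Replicate numbers were shared by the groups, but same-numbered libraries deviated together at correlations of only -0.0967 to 0.142 in BALB/c and -0.0443 to 0.0755 in C57BL/6J, so numbers were not taken as pairs. The genes named are the 8 members, list genes that passed a test, that are the most abundant of a list per length or on which a result turns, the gene that overlaps a member, and the 3 genes most like each member with a mean of at least 50 counts. The members and lists were chosen with earlier results of these data known. The within-library ratios and shares, the correlations with marker shares and the fits without the 3 BALB/c controls of low ribosomal RNA share were chosen after seeing the data.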

Additional observations from a re-analysis of the deposited data

Results flagged for a closer look

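One value stood apart from its group by Dixon's test at 95%: Nxnl1 in BALB/c Txnip replicate 1, at 293 CPM, lay below the other 5 libraries, which were between 340 and 353 CPM. Of the 16 groups of 6 libraries tested (8 genes in both BALB/c arms), about 1 in 20 would be flagged by chance. The C57BL/6J groups of 3 were not tested in this way.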

How the results depend on the processing

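The count of called genes among the 8 was 0 for Txnip in either strain and for the difference between the strains in the effect of Txnip under every alternative run, leave-one-out fits included. Between the strains it was 3 without the 3 BALB/c control libraries of lowest ribosomal RNA locus share, an alternative chosen after seeing the data, 5 to 7 under the other alternatives and 4 to 6 when 1 library was left out. Nxnl1, Nxnl2, Slc2a1 and Slc2a4 stayed past the threshold there in all of the 18 leave-one-out fits. Over all genes tested, calls in BALB/c went from 2 to 76 with DESeq2, 1400 with all genes of at least 1 count and 0 with at least 10 counts in every library, and to 23 without control replicate 1, 6 without Txnip replicate 2 and 258 without Txnip replicate 1; the cause was not tested. Those in C57BL/6J went from 2 to 5 with all genes and 0 with at least 10 counts. Calls between the strains went from 2588 to 1507 with at least 10 counts and 1605 without C57BL/6J control replicate 3, and to 1512 without the 3 libraries of low ribosomal RNA share. Those for the interaction went from 0 to 186 with all genes, 2 without the 2 libraries with the highest rod share and 1 without C57BL/6J control replicate 1.

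With the replicate number as a block, 0 of the 8 genes passed for Txnip in BALB/c, 0 in C57BL/6J and 0 for the interaction, and 3, 2 and 0 of all genes did. No library correlated best with the one that shared its number.

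Some small values changed sign. For Txnip in C57BL/6J, Nxnl2 was 0.0016 with the rod share as a covariate and 0.10 without the 2 libraries with the highest rod share, where Bsg was 0.11 and the interaction of Nxnl2 0.094. Without the 3 libraries of low ribosomal RNA share, the Txnip effect in BALB/c was 0.0085 for Bsg, -0.13 for Slc2a1 and -0.12 for Slc2a3, and the interaction was -0.025 for Bsg and -0.12 for Nxnl1. Slc2a8 between the strains was -0.072 in the Txnip libraries. When 1 library was left out, the Txnip effect in BALB/c ran from -0.070 to 0.11 for Nxnl2 and from -0.055 to 0.083 for Slc2a1. In C57BL/6J it ran from -0.22 to 0.17 for Nxnl2, -0.19 to 0.14 for Bsg and -1.57 to 0.031 for Slc2a3. The interaction ran from -0.24 to 0.14 for Nxnl2, -0.12 to 0.24 for Bsg and -3.11 to 0.61 for Slc2a13.

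Two-sided exact sign flips were also run on the neighbouring pairs of the Slc2a order. The same libraries set this order and the direction of each pair. The counts are therefore a description and cannot test the order. In BALB/c 7 neighbouring pairs differed, against 0 in the control libraries alone and 4 without length correction. With 1 library left out it was 6 to 7. In C57BL/6J it was 4 pairs, against 0 in the control libraries alone, 0 without length correction and 0 when 1 library was left out. With fewer than 6 libraries, as in the control libraries alone and the leave-one-out tests, the threshold cannot be reached there. Leaving out the C57BL/6J libraries with the highest rod share changes nothing in the BALB/c fit and was not run there.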
